A study of Mus musculus with 14 samples.

Results

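Described here are 10 rows of the gene table, those of the opioid receptors (Oprm1, Oprd1, Oprk1 and Oprl1), the CB1 cannabinoid receptor (Cnr1), the enzymes that make endocannabinoids (Dagla, Daglb and Napepld) and the enzymes that break them down (Mgll and Faah). The 10 genes were taken by name from the 39017 gene identifiers in the table. All 10 passed the filter on low counts and were among the 21298 genes tested. RNA bound to ribosomes of parvalbumin-expressing interneurons (PV neurons) was collected by translating ribosome affinity purification (TRAP), in which ribosomes carrying the tagged protein EGFP-L10a are pulled out of a tissue homogenate. The tag was Cre-dependent and was switched on by PV-Cre, so it marked cells in which that Cre had been active and not only adult PV neurons. All mice were males of C57BL/6 background, aged 8 to 12 weeks at the start of behavioral work, and all carried PV-Cre and the EGFP-L10a allele, the non-defeated mice and the input samples included. Chronic social defeat stress (CSDS) is a daily attack by an aggressor mouse over 10 days, after which a social interaction test divided the defeated mice into susceptible (avoiding an aggressor) and resilient (not avoiding it). Hippocampal TRAP RNA was sequenced for 4 samples of non-defeated, 4 of resilient and 3 of susceptible mice, and total RNA of the homogenate from 3 samples labelled as input of non-defeated mice. The labels number the samples (non-defeated 1, 6, 9 and 11; resilient 3, 5, 7 and 8; susceptible 2, 4 and 10; input 12, 13 and 14), and no number is shared between groups.

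Opioid receptors are receptors of the inhibitory Gi/o class, which close calcium channels, open potassium channels of the Kir family and lower cyclic AMP. Oprm1, Oprd1 and Oprk1 encode the mu, delta and kappa receptors, and Oprl1 encodes the receptor of nociceptin, a peptide related to the opioids that the classical opioids bind poorly. In the hippocampus, opioids are known for silencing interneurons and thereby releasing pyramidal cells from inhibition. Cnr1 encodes CB1, the main cannabinoid receptor of the brain, which sits on axon terminals and lowers transmitter release. Among hippocampal interneurons it is known mainly from the cholecystokinin (CCK) class, while the terminals of PV neurons hold little of it. Its ligands are lipids made on demand. The diacylglycerol lipases Dagla and Daglb make 2-arachidonoylglycerol, which the monoacylglycerol lipase Mgll breaks down. Napepld forms anandamide and related lipids, which the hydrolase Faah breaks down.

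The libraries held between 64110214 and 94726962 counts. Levels are given as CPM, each count relative to its library's total after TMM factors, which correct for differences in composition between libraries and ranged from 0.945 to 0.995 in TRAP and from 1.10 to 1.12 in input. All 7 markers of PV interneurons exceeded input in TRAP of non-defeated mice, Pvalb itself with 1465 ± 134 CPM (SD, n = 4) against 25.4 ± 6.03 (SD, n = 3), and the 6 markers of excitatory neurons and 5 of oligodendrocytes were lower. Of 3 markers of the somatostatin class of interneurons, 2 were also higher. Of 6 markers of vascular cells, 1 was higher and 0 were lower. These 6 summed to between 3.93 and 7.54 CPM in non-defeated, 5.25 and 19.8 in resilient, and 10.5 and 14.8 in susceptible libraries, and their part in the member values was not tested. The labelled tissue was hippocampus, but some libraries held RNA of thalamic marker genes. The sum of 5 such genes (Tcf7l2, Prkcd, Slc17a6, Lef1 and Rora) was between 242.7 and 767 CPM in the TRAP libraries numbered 7, 9, 10 and 11, against 135 to 162 CPM in the other 7 TRAP libraries, and 407 CPM in input 14 against 104 and 125 CPM in the other 2. Rora was at 107 CPM or more in every TRAP library, so it made up most of the sum in those other 7. Its mean was 135 CPM in TRAP of non-defeated mice and 67.7 CPM in input. Tcf7l2, a transcription factor typical of thalamic neurons, was between 19.4 and 132 CPM in the TRAP libraries 7, 9, 10 and 11. It was between 2.95 and 6.01 CPM in the other TRAP libraries. Results are therefore also given without these 5 libraries, which leaves 2 non-defeated, 3 resilient, 2 susceptible and 2 input libraries. In bulk RNA, fewer cells of a type and less RNA per cell cannot be told apart.

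In the mm10 genome, Oprm1 (ENSMUSG00000000766) lies on chromosome 10 from 6758506 to 7038198 on the plus strand, Oprd1 (ENSMUSG00000050511) on chromosome 4 from 132110726 to 132144486 on the minus strand, Oprk1 (ENSMUSG00000025905) on chromosome 1 from 5588466 to 5606131 on the plus strand, and Oprl1 (ENSMUSG00000027584) on chromosome 2 from 181715016 to 181720985 on the plus strand. Cnr1 (ENSMUSG00000044288) and Faah (ENSMUSG00000034171) are both on chromosome 4, from 33924593 to 33948831 on the plus strand and from 115967145 to 116017926 on the minus strand. Dagla (ENSMUSG00000035735) lies on chromosome 19 from 10245265 to 10304877 on the minus strand. Daglb (ENSMUSG00000039206; from 143464584 to 143505942 on the plus strand) and Napepld (ENSMUSG00000044968; from 21662901 to 21701396 on the minus strand) are both on chromosome 5, and Mgll (ENSMUSG00000033174) is on chromosome 6 from 88724412 to 88828360 on the plus strand. The libraries did not mark strand, and exons of 3 of the genes overlap exons of a gene on the opposite strand. Daglb shares 2309 of its 9567 exonic bases with Rac1, Mgll shares 167 of 5077 with Gm26588, and Oprm1 shares 96 of 8037 with Ipcef1, and reads in those stretches cannot be told apart.

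Per transcript length, Mgll stood far above the other members. In TRAP of non-defeated mice its level was 38.9 ± 8.09 RPKM (SD, n = 4; normalized CPM divided by the exon length in kilobases), and every library lay above every value of the next gene, Oprl1, with 7.24 ± 0.674 RPKM. Napepld (5.65 ± 1.48 RPKM), Faah (5.31 ± 0.813), Dagla (4.05 ± 0.588), Cnr1 (3.42 ± 0.530) and Oprd1 (2.94 ± 0.313) followed, and from Oprl1 to Oprd1 each gene's range over the libraries overlapped that of its neighbor in the order. Daglb was lower, with 2.13 ± 0.325 RPKM and no overlap with Oprd1. Its exon length includes 2309 bases shared with Rac1, and how reads there were counted is not stated, so its place is less certain. Oprm1 (0.0984 ± 0.0480 RPKM) and Oprk1 (0.0932 ± 0.0596 RPKM) lay at the bottom and overlapped each other. These last genes rest on 31 to 121 and 12 to 108 counts per library over all 14 libraries. Within groups their SD was between 20.4% and 63.9% of the mean level, where counting error alone gives between 12.5% and 20.7%.

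Input had another order. Mgll was again first (31.2 ± 1.05 RPKM; SD, n = 3), but Faah (11.5 ± 1.20 RPKM), Napepld (9.39 ± 0.107) and Cnr1 (9.24 ± 0.560) came before Oprl1 (6.83 ± 0.0922) and Dagla (6.62 ± 0.571), and Oprd1, at 0.687 ± 0.115 RPKM, lay below Daglb (2.60 ± 0.267 RPKM). Napepld and Cnr1 overlapped, as did Oprl1 and Dagla, and Oprm1 and Oprk1. Of the summed RPKM of the opioid receptors, Oprd1 was 28.4% ± 2.81 in TRAP of non-defeated mice and 8.98% ± 1.30 in input, and Oprl1 was 69.7% ± 3.06 and 89.5% ± 0.841. The ratio of Mgll to Faah in RPKM was between 4.96 and 10.8 in the non-defeated TRAP libraries and between 2.48 and 3.11 in input, which shows in the plot of levels per length as the gap between these genes widening from input to TRAP.

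**Figure D1:**
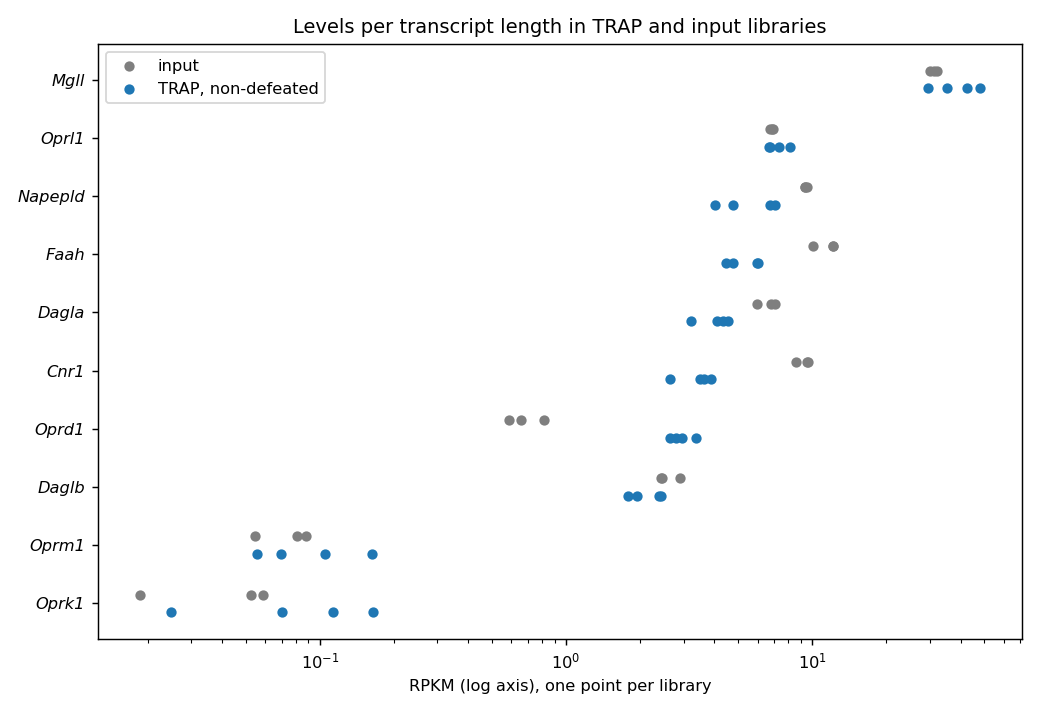
RPKM of the 10 genes on a log axis, with 1 point per library, in the 3 input libraries (gray) and the 4 TRAP libraries of non-defeated mice (blue). Mgll is highest in both, between 29.6 and 48.2 RPKM in TRAP, and Oprd1 is the gene whose TRAP points lie to the right of its input points by the widest gap.

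The first comparison asked which of these transcripts were at a higher or lower level in TRAP than in input. TRAP holds RNA bound to ribosomes and input holds total RNA. Differences between cell types and in ribosome binding therefore cannot be told apart in it. Against input, the delta receptor Oprd1 was 4.29-fold higher in TRAP of non-defeated mice, and 4 genes of endocannabinoid signaling were lower: Cnr1 by 2.71-fold, Faah by 2.16-fold, Napepld by 1.66-fold and Dagla by 1.64-fold. Mgll, Daglb and the other 3 opioid receptors did not pass the test. Thus 5 of the 10 members were called (edgeR quasi-likelihood test, adjusted p below 0.05), 1 of them higher and 4 lower. Over all genes tested, 55% were called, 27.4% as higher and 27.6% as lower, so the share of members called was close to the background. The median log2 fold change was -0.10 over the members and -0.04 over all genes. When libraries were scaled by their totals alone, the median of all genes moved to -0.23, and 4378 of 11976 calls over all genes were higher, where TMM gave 5832 of 11719.

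**Figure D2:**
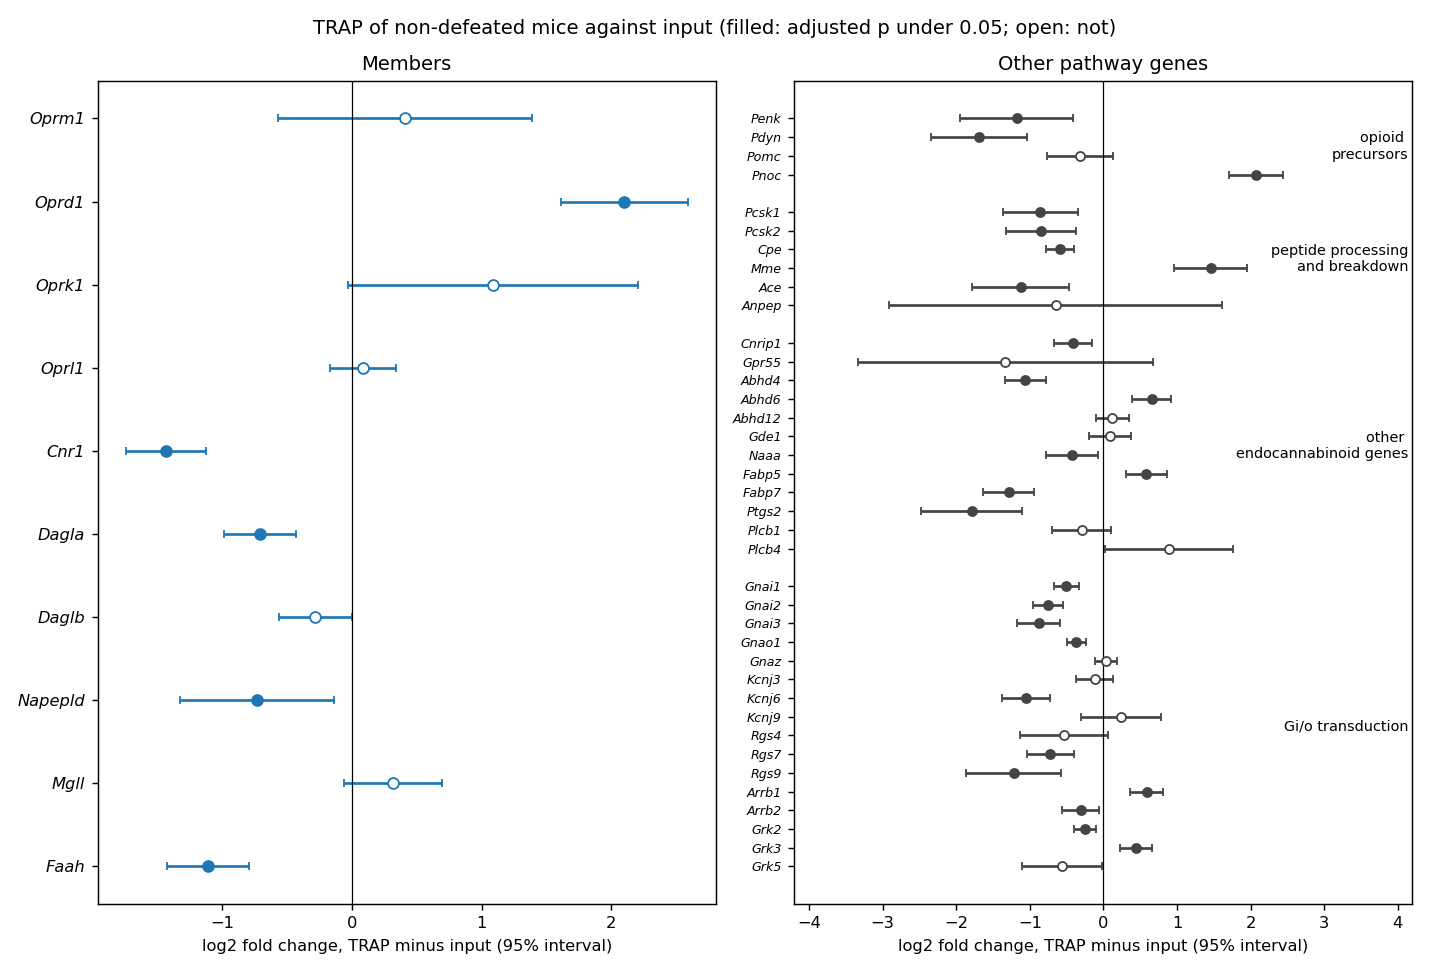
Log2 fold change of TRAP of non-defeated mice (n = 4) minus input (n = 3) with 95% intervals from the edgeR model, for the 10 members (left, blue) and 38 other genes of the pathways (right, gray), where filled points passed an adjusted p of 0.05 and open points did not. Among the members, Oprd1 lies to the right of 0, at 2.10, and Cnr1, Faah, Napepld and Dagla lie to the left, between -1.44 and -0.71.

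Among the receptors, Oprd1 was at 2.65, 3.27 and 2.37 CPM in input 12, 13 and 14, and at 13.5, 10.6, 11.2 and 11.9 CPM in the non-defeated TRAP libraries 1, 6, 9 and 11. Every TRAP library was thus above every input library, with a log2 fold change of 2.10 (SE 0.23, adjusted p = 2.95e-06 in edgeR). The exact permutation test gave p = 0.0286 (2-sided), the smallest that 4 against 3 libraries allow. Cnr1 was at 61.4, 61.8 and 55.4 CPM in input and at 22.6, 17.1, 23.3 and 24.9 CPM in TRAP, in the same order of libraries. The TRAP values were all below the input values, and the log2 fold change was -1.44 (SE 0.14, adjusted p = 1.38e-06 in edgeR). Without the libraries with raised thalamic markers the log2 fold changes were 2.04 for Oprd1 and -1.62 for Cnr1, both still called.

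The other opioid receptors did not separate TRAP from input. Oprl1, the most abundant of the 4, was at 25.6, 26.0 and 25.3 CPM in input and at 25.4, 25.1, 27.6 and 30.6 CPM in TRAP, a log2 fold change of 0.09 (95% interval -0.17 to 0.34, adjusted p = 0.559 in edgeR). That value changed sign with scaling by library totals, to -0.10, and without the thalamic libraries, to -0.02, so neither direction can be given. Oprm1 was between 0.439 and 0.704 CPM in input and between 0.446 and 1.31 CPM in TRAP. Its groups overlapped, with a log2 fold change of 0.41 and an interval of -0.57 to 1.39. Oprk1 was between 0.170 and 0.539 CPM in input and between 0.228 and 1.51 CPM in TRAP, where the library numbered 6 alone lay within the input range. The log2 fold change of Oprk1 was 1.09 (SE 0.52, adjusted p = 0.0911 in edgeR), and without library 6 it was 1.41 and was called (adjusted p = 0.0142).

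The enzymes of endocannabinoid synthesis were at or below the level of input. Dagla, the main maker of 2-arachidonoylglycerol in the adult brain, was at 40.6, 39.2 and 34.4 CPM in input 12, 13 and 14 and at 18.5, 23.5, 24.9 and 26.2 CPM in TRAP 1, 6, 9 and 11. The groups did not overlap, with a log2 fold change of -0.71 (SE 0.13, adjusted p = 0.000347 in edgeR). Napepld was at 36.9, 36.9 and 37.6 CPM in input and at 16.0, 18.8, 26.6 and 28.0 CPM in TRAP. All TRAP values were lower but they were spread widely, and the log2 fold change was -0.73 (SE 0.28, adjusted p = 0.0363 in edgeR; exact permutation test, p = 0.0571). Its call was the least stable of the 5. It was lost without non-defeated library 1 (adjusted p = 0.0945) or 6 (adjusted p = 0.0878) and without input 12, 13 or 14 (adjusted p = 0.0744, 0.0752 and 0.0799). Without all thalamic libraries together it was larger, -1.07 (adjusted p = 0.00843).

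Daglb, the other diacylglycerol lipase, was at 23.5, 27.8 and 23.3 CPM in input and at 18.6, 17.0, 23.3 and 22.7 CPM in TRAP. Its highest TRAP value just exceeded its lowest input value, and the log2 fold change of -0.28 (SE 0.13) did not pass the test (adjusted p = 0.0805 in edgeR). Without non-defeated library 9 it passed, at -0.35 (adjusted p = 0.0421), as it did with scaling by library totals, at -0.47 (adjusted p = 0.00569). The ratio of Dagla to Daglb in RPKM was 1.91 ± 0.281 in TRAP and 2.56 ± 0.283 in input, with 2.30 as the highest TRAP and 2.35 as the lowest input value. The size of this ratio also depends on the bases that Daglb shares with Rac1.

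The breakdown enzymes went apart. Faah was at 95.3, 95.3 and 79.0 CPM in input and at 34.8, 37.5, 47.3 and 46.7 CPM in TRAP, with no overlap and a log2 fold change of -1.11 (SE 0.15, adjusted p = 1.98e-05 in edgeR). Mgll was at 153, 164 and 159 CPM in input and at 245, 215, 180 and 150 CPM in TRAP. Thus 3 TRAP libraries were above all input libraries and library 11 was below them, and the log2 fold change of 0.32 (SE 0.18) did not pass the test (adjusted p = 0.141 in edgeR). Without library 11 it was 0.44 and was called (adjusted p = 0.0398). The TRAP libraries 9 and 11, with raised thalamic markers, had the lower Mgll and the higher Faah and Napepld values of the 4, and input 14 had the lowest Faah.

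Without the 5 libraries with raised thalamic markers, 7 of the 10 members were called, beside 50.3% of all 21346 genes tested in that setting. The added calls were Daglb, at a log2 fold change of -0.52 (adjusted p = 0.0106 in edgeR), and Mgll, with 0.55 (adjusted p = 0.0109), and Faah moved to -1.39 and Dagla to -0.92. Only 2 TRAP and 2 input libraries enter that comparison. Of 6 markers of CCK interneurons, the class best known for Cnr1, 4 were lower in TRAP and 1 (Sncg) was higher. Their summed level was 121 to 147 CPM in TRAP of non-defeated mice and 200 to 228 CPM in input. Most of that sum was Cck itself, with means of 97.6 CPM in TRAP and 172 CPM in input, while Sncg had means of 20.1 and 4.90 CPM. None of the summed marker lists of other cell types fell to 0 in TRAP. Excitatory neuron markers summed to between 742 and 978 CPM there, against 2018 to 2385 CPM in input, and their part in the member values was not tested.

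Other genes of the same pathways were counted from lists of 40 genes, all in the table, of which 38 passed the filter. In TRAP against input, 6 (15.8%) were called higher and 20 (52.6%) lower, beside 27.4% and 27.6% of all genes, and their median log2 fold change was -0.47, beside -0.04. With scaling by library totals 5 were higher and 24 lower, beside 20.6% and 35.7% of all genes, and without the thalamic libraries 7 were higher and 17 lower, beside 24.9% and 25.4%. The counts per list given next are to be read against the same shares of all genes. The genes that left the test were Cnr2, the other cannabinoid receptor, which had between 0 and 22 counts per library, and Trpv1, a cation channel that anandamide opens, with 0 to 14 counts.

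The precursors of the opioid peptides, the ligands of the receptors, went in opposite directions. Pnoc, which encodes the precursor of nociceptin, was higher, at 20.4 ± 2.21 CPM in TRAP beside 4.84 ± 0.435 in input, and its log2 fold change was 2.07 (adjusted p = 2.63e-07 in edgeR). Pdyn, the precursor of dynorphins, which act on the kappa receptor, was lower, with 2.19 ± 0.702 CPM against 7.05 ± 2.02 (-1.69, adjusted p = 0.000312). Penk, the precursor of enkephalins, which act on delta and mu receptors, was lower as well, with 7.04 ± 3.07 CPM against 15.9 ± 4.72 (-1.18, adjusted p = 0.0120). The call of Penk was lost without the thalamic libraries (-1.04, adjusted p = 0.0827). Pomc did not pass the test.

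Of 6 genes that process or break down opioid peptides, 1 was higher and 4 were lower. Mme, which encodes neprilysin, a peptidase that cuts enkephalins, was higher (log2 fold change 1.46, adjusted p = 0.000106 in edgeR). Ace, another peptidase, was lower (-1.13), as were the proprotein convertases Pcsk1 (-0.86) and Pcsk2 (-0.85), which cut the precursors. Of 12 other endocannabinoid genes, 2 were higher and 5 lower. Ptgs2, which encodes the cyclooxygenase COX-2 that can oxidize endocannabinoids, had a log2 fold change of -1.79, the lipid carrier Fabp7 of -1.29 and Abhd4, of an alternative route to anandamide, of -1.06, while Abhd6, another 2-arachidonoylglycerol hydrolase, was higher, at 0.66.

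Of 16 genes of Gi/o transduction, 2 were higher and 9 lower in TRAP, and 1 and 12 when libraries were scaled by their totals. The lowest by fold were Rgs9, which shortens G protein signals (log2 fold change -1.22), Kcnj6, a potassium channel subunit opened by G proteins (-1.05), and the G protein subunits Gnai3 (-0.88) and Gnai2 (-0.75). All of them kept their calls with RLE size factors, with library totals and without the thalamic libraries.

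**Figure D3:**
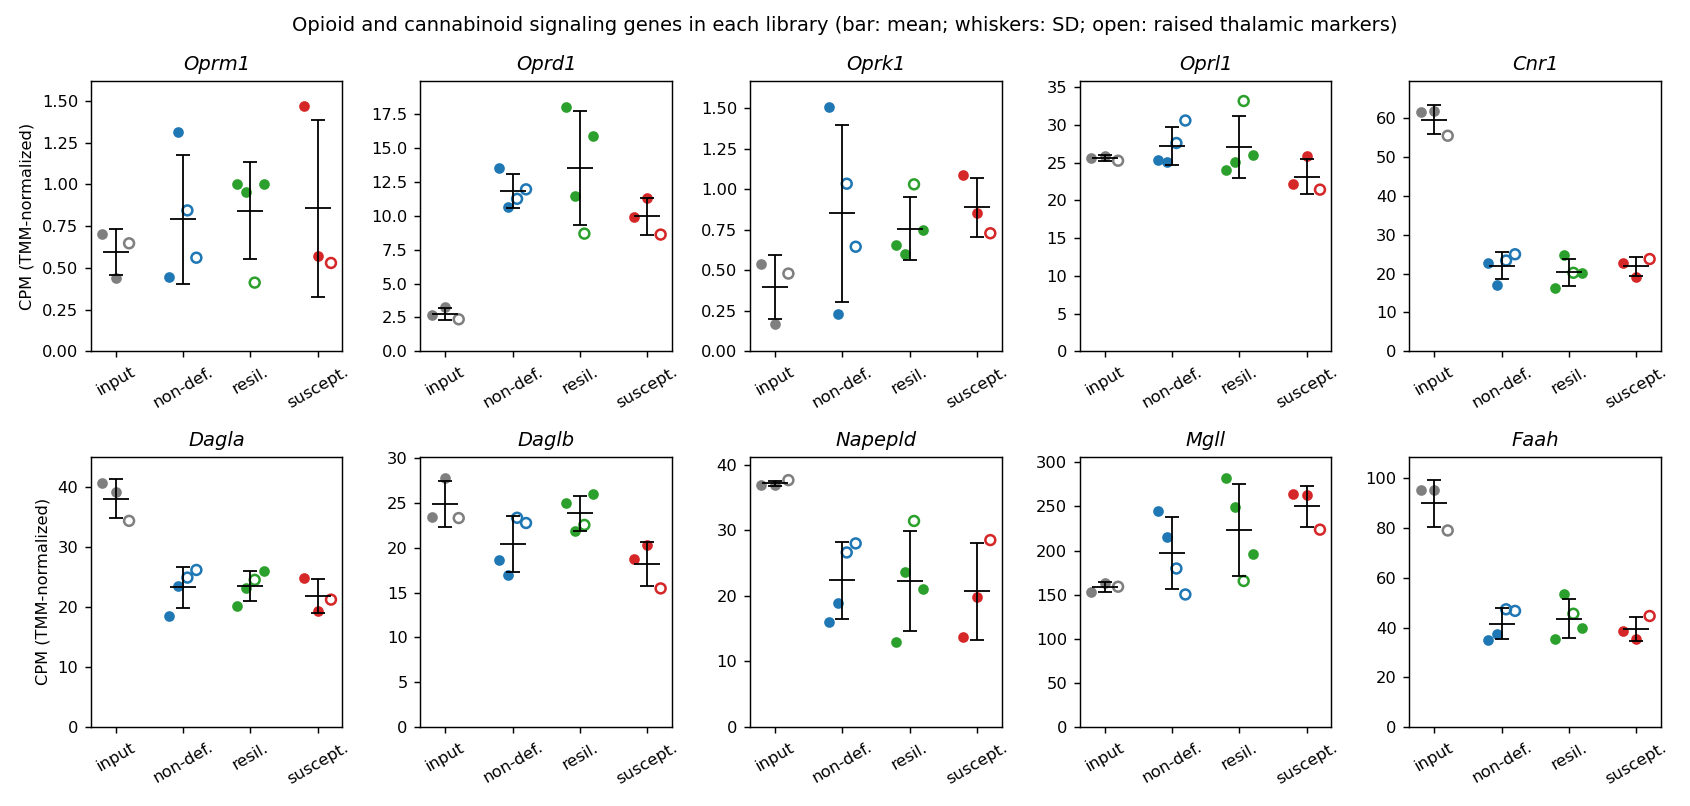
TMM-normalized CPM of the 10 genes in each of the 14 libraries, with the mean (bar) and SD (whiskers) of input (n = 3), non-defeated (n = 4), resilient (n = 4) and susceptible (n = 3) groups, where open circles are the libraries with raised thalamic markers. For Oprd1, Cnr1, Faah, Dagla and Napepld the TRAP groups all lie to 1 side of input. The 3 TRAP groups overlap in every panel except that of Daglb, where susceptible lies between 15.5 and 20.3 CPM and resilient between 21.8 and 26.0. How many of all genes lack such overlap was not counted.

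The other comparisons asked whether TRAP RNA of resilient or susceptible mice differed after CSDS. In these genes no difference passed the adjusted threshold. In resilient against non-defeated mice 0 of 10 members were called, beside 0% of all genes tested (0 of 21298), and 0 members had an unadjusted p under 0.05, beside 4.38% of all genes. In susceptible against non-defeated mice 0 were called, beside 0.0376%, and 0 had an unadjusted p under 0.05, beside 13.3%. In susceptible against resilient mice 0 were called, beside 1.89%, and 1 had an unadjusted p under 0.05 (Daglb), beside 20.9%. These shares of all genes were not stable. In susceptible against resilient mice the 403 calls over all genes became 6 without resilient library 8 and 1058 without susceptible library 10, 0 when the 2 groups were fitted alone and 1 with TRAP libraries only. With 1 library left out, between 0 members (without susceptible library 10) and 3 (without susceptible library 4) had an unadjusted p under 0.05. DESeq2 on the groups compared also called 0 members in each of these comparisons, with 0, 1 and 1 at an unadjusted p under 0.05. The median of the absolute log2 fold changes over members was 0.10, 0.11 and 0.15 in the 3 comparisons, and 0.12, 0.19 and 0.23 over all genes. The comparisons share libraries and are not independent of each other.

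**Figure D4:**
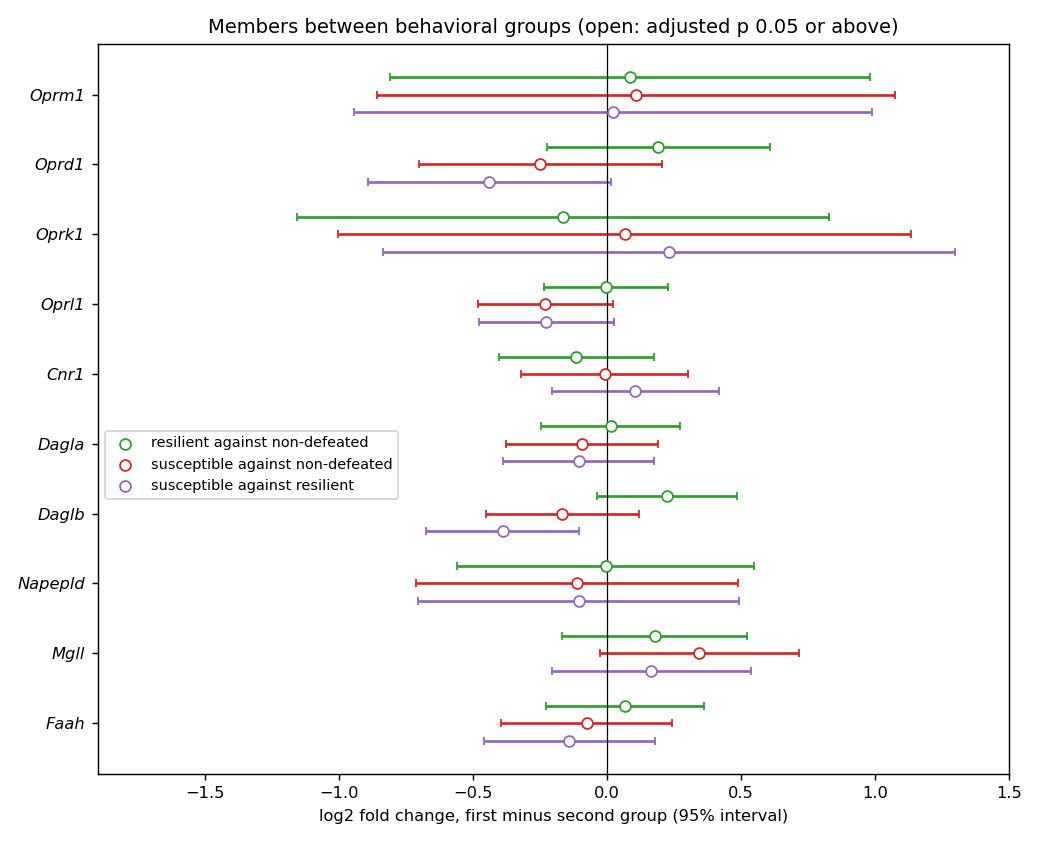
Log2 fold changes of the 10 genes with 95% intervals from the edgeR model, in resilient against non-defeated (green; n = 4 and 4), susceptible against non-defeated (red; n = 3 and 4) and susceptible against resilient mice (purple; n = 3 and 4), where open points mark an adjusted p of 0.05 or above. The interval of Daglb in susceptible against resilient mice, -0.68 to -0.11, is the 1 of 30 that leaves out 0, and Oprm1 and Oprk1 have the widest intervals.

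Opioid receptors had the following values in TRAP. Oprd1 was at 18.0, 11.4, 8.68 and 15.9 CPM in the resilient libraries 3, 5, 7 and 8 and at 9.92, 11.3 and 8.61 CPM in the susceptible libraries 2, 4 and 10, with the non-defeated libraries between 10.6 and 13.5. Resilient mice were spread over the whole range, and the log2 fold change was -0.44 in susceptible against resilient mice (95% interval -0.89 to 0.01, adjusted p = 0.253 in edgeR), 0.19 in resilient and -0.25 in susceptible against non-defeated mice. The lowest resilient value was that of library 7. Without the thalamic libraries Oprd1 was at -0.50 in susceptible against resilient mice and was not called. In that setting 1 of 4 opioid receptors had an unadjusted p under 0.05, beside 21.8% of all genes. Oprl1 was at 24.1, 25.2, 33.2 and 26.0 CPM in resilient and at 22.2, 25.8 and 21.4 CPM in susceptible libraries. The highest value was that of resilient library 7, which also had the highest thalamic sum (767 CPM), and susceptible mice had a log2 fold change of -0.23 against both other groups, with intervals of -0.48 to 0.02 and -0.48 to 0.03. Without the thalamic libraries it was -0.07 against non-defeated and -0.06 against resilient mice. For Oprm1 and Oprk1 the log2 fold changes lay between -0.17 and 0.23 in the 3 comparisons. The outermost ends of their 95% intervals over the 3 comparisons were -0.94 and 1.07 for Oprm1 and -1.16 and 1.30 for Oprk1, so these libraries leave wide differences possible.

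Cnr1 overlapped between all 3 groups. It was at 16.2, 24.6, 20.2 and 20.2 CPM in resilient and at 22.7, 19.1 and 23.7 CPM in susceptible libraries, beside 17.1 to 24.9 CPM in non-defeated ones. No library stood apart, and the log2 fold changes were -0.11 (resilient against non-defeated, interval -0.40 to 0.17), -0.01 (susceptible against non-defeated, -0.32 to 0.30) and 0.11 (susceptible against resilient, -0.20 to 0.42). CCK interneuron markers, which could bring Cnr1 with them, summed to 149 to 172 CPM in susceptible, 111 to 151 in resilient and 121 to 147 in non-defeated libraries, and their part in the Cnr1 values was not tested.

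Of the synthesis enzymes, Daglb differed most between groups. It was at 24.9, 21.8, 22.5 and 26.0 CPM in the resilient libraries 3, 5, 7 and 8 and at 18.7, 20.3 and 15.5 CPM in the susceptible libraries 2, 4 and 10. The groups did not overlap, and non-defeated libraries, at 18.6, 17.0, 23.3 and 22.7 CPM, spanned both. Of 38 other pathway genes, 4 also did not overlap between susceptible and resilient mice. The share of all genes without overlap was not counted. The values of 23.3 and 22.7 CPM came from libraries 9 and 11, which had raised thalamic markers. Relative to non-defeated, Daglb was at 0.22 in resilient and -0.17 in susceptible mice (log2 scale, neither called). In 12 other settings the resilient value lay between 0.21 and 0.44. Without the thalamic libraries the susceptible value turned to 0.13. In resilient against non-defeated mice, 1 of the 3 synthesis enzymes then had an unadjusted p under 0.05, beside 11.5% of all genes. Susceptible minus resilient gave a log2 fold change of -0.39 (SE 0.13, p = 0.0108, adjusted p = 0.121 in edgeR), and the exact permutation test gave its smallest p, 0.0286. Among sample numbers 1 to 6 the difference was -0.26, and among 7 to 11, where the susceptible group has 1 library, it was -0.65. Without susceptible library 10 it was -0.29 (adjusted p = 0.232 in edgeR), without the thalamic libraries -0.31 (adjusted p = 0.189), and in all settings tried it lay between -0.48 and -0.29. Part of Daglb's exons overlap Rac1, as given above.

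Dagla was between 20.2 and 26.0 CPM in resilient and between 19.3 and 24.9 CPM in susceptible libraries, with log2 fold changes from -0.11 to 0.01 and intervals from -0.39 to 0.27. Napepld was between 12.9 and 31.4 CPM in resilient and between 13.7 and 28.5 CPM in susceptible libraries. Its spread within each group was far wider than the differences between them, which were -0.01, -0.11 and -0.11, with intervals from -0.71 to 0.55.

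Of the breakdown enzymes, Mgll was at 282, 249, 165.5 and 196 CPM in the resilient libraries 3, 5, 7 and 8 and at 264, 263 and 224 CPM in the susceptible libraries 2, 4 and 10. Susceptible libraries 2 and 4 were above every non-defeated library (150 to 245 CPM), and all 3 lay within the resilient range. The log2 fold change was 0.34 against non-defeated (95% interval -0.03 to 0.71, adjusted p = 0.403 in edgeR) and 0.16 against resilient mice (-0.21 to 0.54). Without the thalamic libraries these were 0.20 and 0.13. Faah was between 35.4 and 53.5 CPM in resilient and between 35.2 and 44.7 CPM in susceptible libraries. Its groups overlapped, with log2 fold changes from -0.14 to 0.07 and intervals from -0.46 to 0.36.

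Mgll and Napepld also differed between low and high sample numbers. In the TRAP libraries 1 to 5 Mgll was at 245, 264, 282, 263 and 249 CPM, and in libraries 6 to 11 at 215, 165.5, 196, 180, 224 and 150 CPM, so that every one of the first 5 lay above every one of the others. Napepld was at 16.0, 13.7, 12.9, 19.9 and 23.7 CPM in libraries 1 to 5 and at 18.8, 31.4, 20.998, 26.6, 28.5 and 28.0 CPM in libraries 6 to 11. The 4 highest Napepld values were those of libraries 7, 9, 10 and 11, the TRAP libraries with raised thalamic markers. Libraries 6 and 8, whose thalamic sums were 136 and 149 CPM, were low in Mgll as well. The labels do not say what the numbers stand for, this pattern and the break after 5 were read off the values, and it was given no test. Napepld overlapped across the break. Other markers moved with the numbers too. The 3 markers of the somatostatin class summed to between 350.02 and 744 CPM (median 584.5) in libraries 1 to 6 and to between 289 and 351.5 CPM (median 320) in libraries 7 to 11, and astrocyte markers to between 160 and 279 CPM (median 165) and between 210 and 339 CPM (median 256). Their part in the Mgll and Napepld values was not tested. The ranges 1 to 6 and 7 to 11, which break at another number, both hold libraries of all 3 groups, but of the susceptible libraries only number 10 is above 6. Within the libraries 1 to 6, Mgll differed by 0.20 on the log2 scale between susceptible and non-defeated and by -0.01 between susceptible and resilient mice, and Napepld by -0.07 and -0.09. Within the libraries 7 to 11, with 1 susceptible library, the same differences were 0.45 and 0.31 for Mgll and 0.06 and 0.15 for Napepld.

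**Figure D5:**
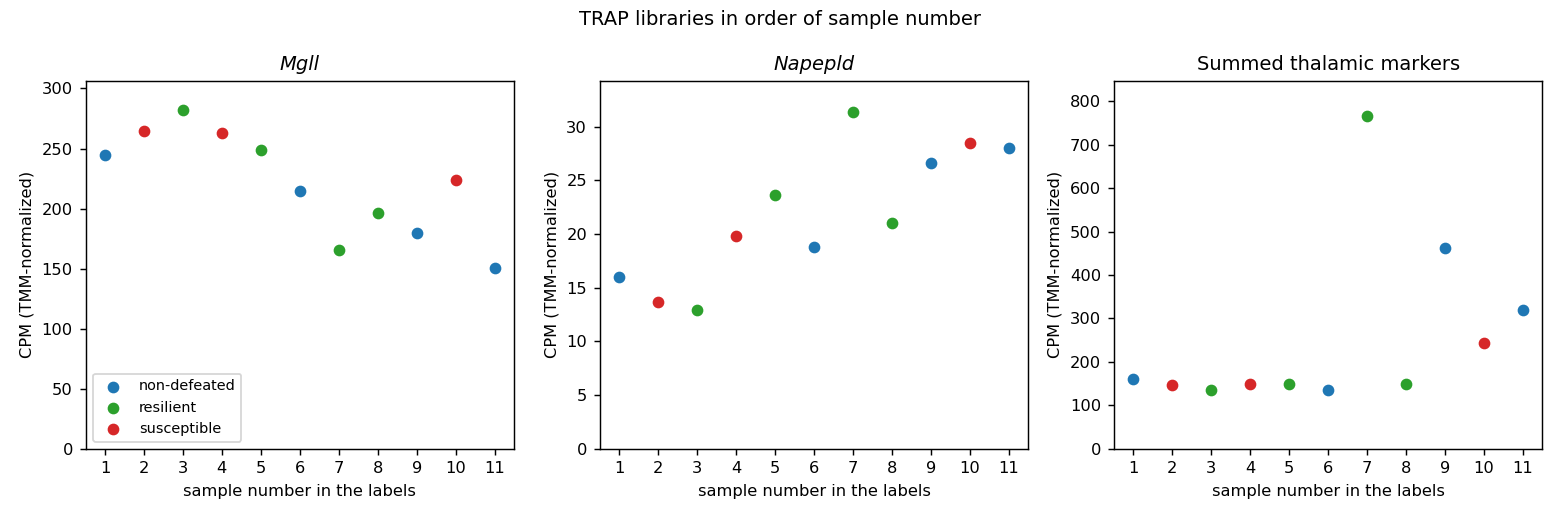
TMM-normalized CPM of Mgll, Napepld and the sum of 5 thalamic marker genes in the 11 TRAP libraries, by the number in the sample label and colored by group. Mgll is between 245 and 282 CPM in libraries 1 to 5 and between 150 and 224 CPM in libraries 6 to 11, while Napepld is highest in libraries 7, 9, 10 and 11, the libraries with a thalamic sum of 242.7 CPM or more.

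Among the 38 other genes of the pathways, 0 were called in each comparison between behavioral groups. At an unadjusted p under 0.05 there were 1, 4 and 2 of them in resilient against non-defeated, susceptible against non-defeated and susceptible against resilient mice (2.63%, 10.5% and 5.26%), beside 4.38%, 13.3% and 20.9% of all genes. Their median log2 fold changes were 0.04, -0.05 and -0.07 in the same order. Without the thalamic libraries 0 were called as well, with 3, 4 and 6 at an unadjusted p under 0.05 (7.89%, 10.5% and 15.8%), beside 11.5%, 7.53% and 21.8% of all genes, of which 0, 0 and 816 were called.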

How the data were processed

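The authors trimmed single reads with fastp, aligned them to mm10 with STAR and deposited raw counts per gene, without normalization. The submitters' processing notes name STAR 2.5.3a and HTSeq, while the authors' methods name a later STAR version and no counter. Which run gave the deposited counts is not stated, and the annotation is not given in the sources used here. cDNA was made with SMART-Seq, which does not mark strand. Groups were taken from the labels. Genes were named, measured and located with GENCODE release M21, which named 37607 of 39017 identifiers, and the rest held 0.824% of counts.

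A single edgeR model (version 4.0.16, in R 4.3.3) held all 14 libraries, with TMM factors, the default filter on low counts (21298 genes kept), the 2-sided quasi-likelihood test and Benjamini-Hochberg adjustment over all genes tested, with a threshold of 0.05. Intervals are 95% and come from that fit. RPKM was normalized CPM over the summed exon length. Exact permutation tests used log2 CPM with a prior count of 2. No pair of replicates came near counting error alone (chi-square per degree of freedom of 13.9 or more). The labels do not say whether the samples of a group are separate animals, so p-values measure the spread between these samples.

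The members and lists were chosen with earlier results of these data known. All members are named in each comparison, of other pathway genes at most the 4 called with the largest fold change per list and comparison, and Pvalb. Cnr2, Trpv1, Pomc, Cck, Sncg, Rora and Tcf7l2 were named outside that rule, after their values were seen. Alternatives were RLE size factors, library totals, other filters, the likelihood ratio test, DESeq2 1.42.0, offsets for GC content and gene length, fewer libraries, a term for the sample number range and leaving out each library. Leaving out the libraries with raised thalamic markers was chosen after seeing the data. The edgeR and DESeq2 fits were checked on simulated counts, and the other steps were not.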

Additional observations from a re-analysis of the deposited data

Results flagged for a closer look

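Oprm1 was 0.412 CPM in the resilient library numbered 7, while the other 3 resilient libraries were between 0.956 and 1.004 CPM. The gap was 0.919 of the group's range. It is the 1 value far from its group among 20 groups of 4 libraries examined (10 genes in non-defeated and resilient mice), and chance gives about 1 in 20. Oprm1 rests there on 34 counts, and the same library had the highest thalamic sum, whose part in the value was not tested.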

How the results depend on the processing

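No paired analysis was possible because the groups share no sample number. In TRAP against input 5 members were called, between 5 and 7 in 10 other settings and between 4 and 6 with 1 library left out. Between behavioral groups 0 were called in every setting run. Oprd1, Cnr1, Faah and Dagla kept direction and call in every setting of TRAP against input. An offset for gene length took Napepld out (-0.61, adjusted p = 0.0660 in edgeR) and brought in Mgll (0.52) and Oprk1 (1.35), and an offset for GC content brought in Daglb (-0.33). No value that changed sign was called. The largest of them in the main edgeR fit was Daglb in susceptible against non-defeated mice, at -0.167. With library totals the values that changed sign were Oprl1 in TRAP against input (-0.101) and Cnr1 in susceptible against non-defeated mice (0.006). With no filter they were, in resilient against non-defeated mice, Oprl1 (0.004) and Napepld (0.001). With the GC offset they were Dagla (-0.033) and Napepld (0.018) in the same comparison, and with the length offset Cnr1 in susceptible against non-defeated mice (0.054). With a term for number range they were Napepld in resilient (0.005), and Oprm1 (-0.018) and Cnr1 (0.015) in susceptible against non-defeated mice, and Oprm1 in susceptible against resilient mice (-0.092). Without the thalamic libraries they were Oprl1 in TRAP against input (-0.019), Cnr1 (0.033) and Napepld (0.139) in resilient, and Cnr1 (0.075), Dagla (0.072), Daglb (0.134) and Faah (0.026) in susceptible against non-defeated mice. The causes were not tested.

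With 1 library left out, signs changed within these ranges. In resilient against non-defeated mice Oprm1 ran from -0.109 to 0.450, Oprk1 from -0.486 to 0.263, Oprl1 from -0.116 to 0.053, Dagla from -0.083 to 0.078, Napepld from -0.218 to 0.183 and Faah from -0.048 to 0.153. In susceptible against non-defeated mice Oprm1 ran from -0.531 to 0.471, Oprk1 from -0.256 to 0.493, Cnr1 from -0.113 to 0.077 and Napepld from -0.415 to 0.113. In susceptible against resilient mice Oprm1 ran from -0.617 to 0.273 and Napepld from -0.410 to 0.118. Oprm1 and Oprk1 had the fewest counts, at most 121 per library, and the widest intervals.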
